A study of Rattus norvegicus with 9 samples.

Results

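The genes described here make, load, break down and mark the use of GABA, the main inhibitory transmitter of the adult cortex, together with calcium-binding proteins and a transcription factor that mark inhibitory interneurons. They were chosen by name, as probes whose gene symbol in the platform annotation was Gad1, Gad2, Slc32a1, Abat, Aldh5a1, Pvalb, Calb1, Calb2 or Lhx6. Of these 9 genes, 8 had a probe under that symbol, each with 1 probe, out of 22517 probes on the array; Slc32a1, the transporter that loads GABA into synaptic vesicles, was not analysed here. All 8 probes were detected on all 9 arrays, and they were tested as part of the 18531 probes detected on at least 3 arrays.

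The samples were cortex from 6 male and 3 female Sprague-Dawley rats aged 60 days, 1 animal and 1 Illumina bead array each. All 9 were the non-irradiated controls of a study of an irradiation model of cortical dysplasia; irradiated animals were not analysed here. Sex was the only labelled property in which the animals differed, apart from a number in each title (3 numbers, with 1 female and 2 males each) whose meaning is not given. Animals are called male 1 to male 6 and female 1 to female 3, and these numbers are names only.

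GABA is made from glutamate by a decarboxylase that exists in a pair of forms, encoded by Gad1 and Gad2. Gad1 protein is spread through the cell and supplies most of the basal GABA, while Gad2 protein sits mainly at nerve terminals. GABA is then broken down in mitochondria, first by GABA transaminase (Abat) and next by succinic semialdehyde dehydrogenase (Aldh5a1), which sends its carbon on into the citric acid cycle. Cortical interneurons fall into classes that are often told apart by their calcium-binding proteins: parvalbumin (Pvalb) marks fast-spiking basket and chandelier cells, calretinin (Calb2) marks many cells that also carry vasoactive intestinal peptide, and calbindin (Calb1) marks part of the somatostatin cells but also some pyramidal neurons and striatal projection neurons. Lhx6 is a LIM homeobox factor that the parvalbumin and somatostatin cells keep from their origin in the medial ganglionic eminence.

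The sequence upstream of the start of Gad1, Gad2 and Aldh5a1 is shown because the first pair encodes the same enzyme activity and the last was the gene that separated the sexes. Each is the 250 bases before the RefSeq start on assembly GRCr8, on the gene's own strand, with any TATAAA or GGGCGG (either strand) in capitals. The Gad1 window lies at chr3:75777202-75777451 (plus strand), Gad2 at chr17:89671468-89671717 (plus strand) and Aldh5a1 at chr17:40560123-40560372 (plus strand).
Gad1: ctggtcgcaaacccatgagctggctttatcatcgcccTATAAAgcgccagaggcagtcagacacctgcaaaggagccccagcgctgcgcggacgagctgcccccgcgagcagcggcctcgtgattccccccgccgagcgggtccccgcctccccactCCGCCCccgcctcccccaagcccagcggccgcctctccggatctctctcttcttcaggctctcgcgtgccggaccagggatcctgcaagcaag
Gad2: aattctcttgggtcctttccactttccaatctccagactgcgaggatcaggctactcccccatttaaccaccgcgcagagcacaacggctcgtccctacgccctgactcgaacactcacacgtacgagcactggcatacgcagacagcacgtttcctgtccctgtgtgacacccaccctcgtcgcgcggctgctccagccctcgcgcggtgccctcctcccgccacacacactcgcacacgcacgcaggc
Aldh5a1: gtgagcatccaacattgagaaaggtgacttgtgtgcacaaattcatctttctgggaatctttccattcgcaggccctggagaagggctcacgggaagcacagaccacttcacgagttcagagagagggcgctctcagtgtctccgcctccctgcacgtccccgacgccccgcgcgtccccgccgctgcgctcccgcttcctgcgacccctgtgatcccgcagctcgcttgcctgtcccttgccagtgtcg
The Gad1 window held 1 TATAAA, 213 bases before the start, and 1 GGGCGG on the opposite strand, 93 bases before it. Neither word was in the Gad2 or the Aldh5a1 window. Over 27457 RefSeq rat promoters of the same length, 13.1% held TATAAA and 32.4% held GGGCGG on either strand. GC content was 68.4% for Gad1, 62.0% for Gad2 and 61.6% for Aldh5a1, against a median of 52% over all these promoters. Upstream windows were available for 6 of the 9 genes, and not for Abat, Calb1 and Calb2. None of the 6 held TAATTA or CACGTG, which 4.94% and 5.79% of all promoters held.

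The deposited values were linear intensities that had not been normalized between arrays. Mean intensity per array was 183.6 to 238.8, and 3 arrays (male 2, male 4 and female 2) were dimmest, between 183.6 and 185.4, with the remaining 6 from 212.2 upward. After background correction and quantile normalization the arrays correlated at 0.984 to 0.995. Of 9 excitatory neuron markers, 7 had a probe and all 7 were detected on every array, as were 13002 of the 22517 probes. They included Slc17a7, a vesicular glutamate transporter, at 7.93 to 8.49 in males and 8.12 to 8.49 in females. Detection cannot tell cortex from other regions, since all 5 measured thalamic and all 5 measured olfactory bulb markers were also detected on every array. Markers of striatal projection neurons were detected too, 11 of 12 measured genes on every array. Male 5 stood apart in myelin: all 9 measured myelin and oligodendrocyte genes were lowest in it, with a mean deviation from each gene's median of -1.04 (log2) against -0.16 to 0.22 in the other animals. The levels below are log2 of the corrected, normalized intensity, so they can be set against each other between animals but not between genes, and a shift in a dim gene is understated.

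Gad1, the main GABA-synthesising enzyme, ranged from 11.10 to 11.34 in males (median 11.17) and was 11.15, 11.54 and 11.29 in females 1, 2 and 3. Males averaged lower, at 11.18 ± 0.08 in males and 11.33 ± 0.20 in females (SD, n = 6 and 3), but female 1 lay inside the male range. The difference (male minus female) was -0.14 ± 0.08 (SE), with a 95% interval from -0.33 to 0.04 (limma adjusted p = 0.9999 over all tested probes, a value shared by all 8 genes; two-sided exact permutation p = 0.179). In bulk tissue such as this, fewer cells of a type and less RNA per cell cannot be told apart.

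Gad2, the synaptic form, varied far more between animals. Levels were 7.24, 8.31, 8.22, 8.05, 8.16 and 7.51 in males 1 to 6, and 7.97, 8.04 and 8.29 in the 3 females. Males 1 and 6 were the low animals, and the remaining 4 males overlapped the females. The means were 7.92 ± 0.43 in males and 8.10 ± 0.17 in females, a difference of -0.18 ± 0.22 (95% interval -0.68 to 0.31, exact permutation p = 0.583). Its spread within sex, an SD of 0.378, was larger than that of 98.9% of tested probes, while that of Gad1, 0.129, was larger than that of 70.5%. The 2 synthesis genes did not order the animals alike: Gad1 was highest in female 2, whose Gad2 level was in the middle, and males 1 and 6, low in Gad2, had Gad1 levels of 11.18 and 11.12.

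Abat, the transaminase that starts GABA breakdown, ranged from 7.39 to 7.81 in males (median 7.65) and 7.64, 7.81 and 7.63 in females. The lowest animal was male 5. The difference was -0.05 ± 0.08 (95% interval -0.24 to 0.13, exact permutation p = 0.667), and the sexes overlapped.

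Aldh5a1, the dehydrogenase that completes the breakdown route, was the only one of the 8 genes in which the sexes did not overlap. Its levels were 7.12, 7.25, 7.12, 7.19, 7.07 and 7.10 in males 1 to 6, against 7.30, 7.39 and 7.39 in females 1 to 3. Every male therefore lay below every female, which held for 1.5% of all tested probes in either direction and for 0.831% in this one. The same order must then hold within each of the 3 title numbers and within the 3 dim arrays, so these subsets add no separate evidence. The difference was -0.22 ± 0.05 (95% interval -0.33 to -0.10), with a limma p of 0.00162 that did not pass adjustment over all probes (adjusted p = 0.9999). The exact permutation p was 0.0119, the smallest that the 84 splits of 6 and 3 animals allow.

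Across the tested probes, 0% passed an adjusted p under 0.05 for sex in limma, 1 probe (0.0054%) passed an unadjusted p under 0.001 and 2.37% passed an unadjusted p under 0.05. Aldh5a1 was the single one of the 8 genes with an unadjusted p under 0.05, lower in males as 1.18% of all probes were at that threshold. Male means were lower for 6 of the 8 genes, against 50.3% of all tested probes, and the median difference was -0.11 against -0.0004 for all probes. The plot of differences shows that 7 of the 8 intervals included 0.

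**Figure D1:**
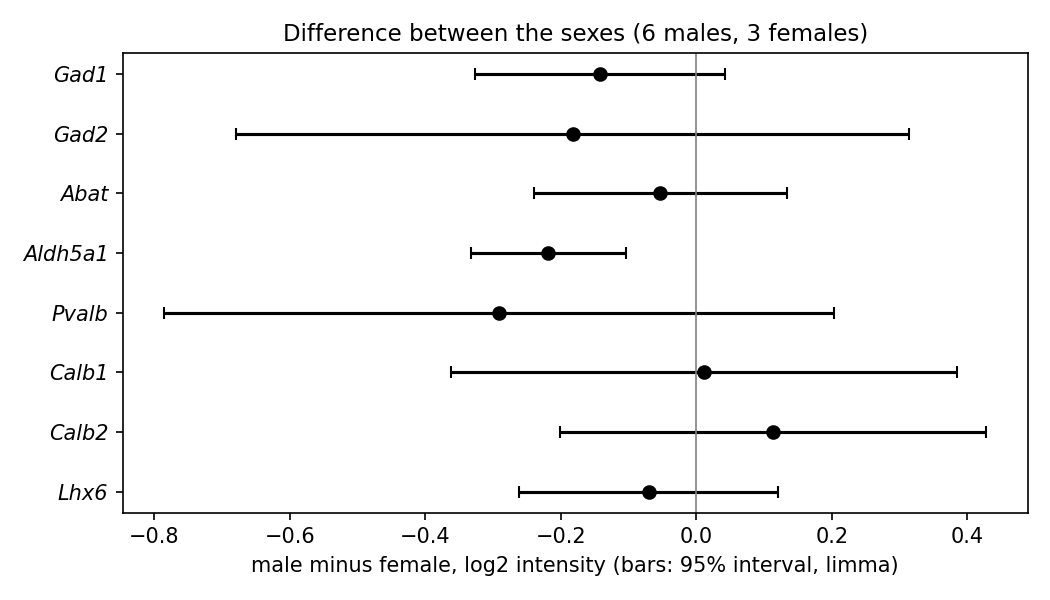
Difference between males and females for each gene, male minus female, in log2 intensity (x axis); genes run down the page in order of role, points are limma estimates from 6 males and 3 females, and bars are 95% intervals. Only the interval of Aldh5a1, at -0.33 to -0.10, leaves out 0, and none of the 8 genes passed adjustment over all probes.

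Pvalb, the calcium buffer of fast-spiking cells, had levels of 8.26, 8.38, 8.16, 8.02, 7.27 and 8.49 in males 1 to 6, against 8.32, 8.28 and 8.56 in the females. Male 5 lay far below the other 8 animals, which kept within 8.02 to 8.56. The means were 8.10 ± 0.43 in males and 8.39 ± 0.15 in females, a difference of -0.29 ± 0.22 (95% interval -0.79 to 0.20, exact permutation p = 0.345), and the sexes overlapped.

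Calb1 spread widely in both sexes. It was 10.20, 10.33, 9.68, 10.37, 10.39 and 9.87 in males 1 to 6, and 10.16, 10.36 and 9.88 in females. High and low animals were found in each sex, and the difference was 0.01 ± 0.17 (95% interval -0.36 to 0.38, exact permutation p = 0.893). Its SD within sex, 0.281, exceeded that of 96.4% of probes.

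Calb2 was nearly flat in all animals but one. The lowest and median male levels were 6.46 and 6.50, the females lay at 6.50, 6.50 and 6.47, and male 5 was at 7.17. In deposited intensity this was 143 in male 5 against 66.7 to 78.0 in the other animals. The difference between sexes was 0.11 ± 0.14 (95% interval -0.20 to 0.43, exact permutation p = 0.619).

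Lhx6, the transcription factor of the medial ganglionic eminence lineage, lay close to the detection threshold, with a lowest intensity of 1.21 times the threshold of its array. It was 6.11 to 6.52 in males (median 6.38) and 6.48, 6.37 and 6.38 in females. The sex difference was -0.07 ± 0.09 (95% interval -0.26 to 0.12, exact permutation p = 0.5). Its 2 lowest animals, males 2 and 4, had dim arrays, with 6.11 to 6.37 on the 3 dim arrays against 6.36 to 6.52 on the 6 brighter ones. The part of array brightness in this was not tested.

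**Figure D2:**
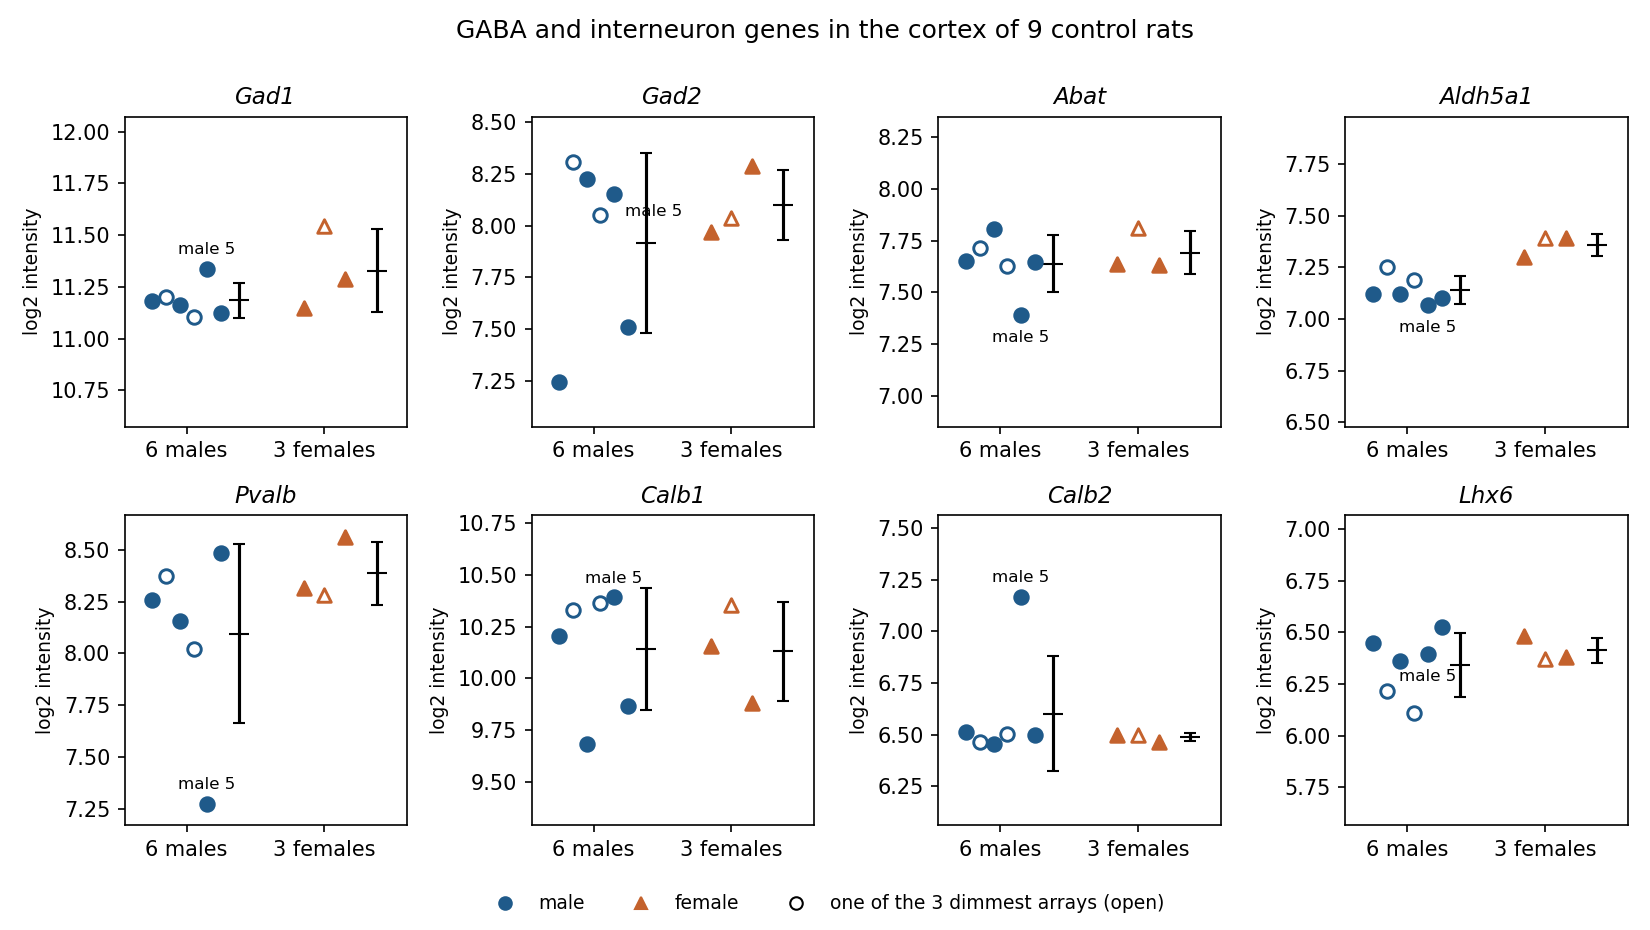
Log2 intensity (y axis, each panel spanning the same range) of the 8 measured genes in 6 males (circles, left) and 3 females (triangles, right); each point is 1 animal, open points are the 3 dimmest arrays, and bars are the mean and SD of each sex. Male 5 is the low point for Pvalb (7.27) and the high point for Calb2 (7.17), Gad2 is low in males 1 and 6, and only Aldh5a1 has every male below every female.

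The set as a whole varied more between animals than a typical probe: the median SD within sex was 0.184 for the 8 genes and 0.0919 for all tested probes, and 7 of the 8 were above the value for all probes, with Aldh5a1 at 0.063 the exception. All 8 were detected on every array, as were 13002 of the 18531 tested probes. Spread is understated in dim probes, so this comparison is not matched for intensity. Male 5 was the highest or the lowest animal for 5 of the 8 genes (Abat, Aldh5a1, Pvalb, Calb1 and Calb2) and for 28.0% of all probes. Without male 5 the median SD of the 8 genes was 0.132. No gene of the set passed an F test between the 3 title numbers (limma, adjusted for sex), where p ran from 0.117 for Abat to 0.742, and 0% of probes passed adjustment (9.56% had an unadjusted p under 0.05, and the smallest adjusted p was 0.291).

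Covariation over the 9 animals was measured by Pearson's r between each of the 8 genes and all tested probes, in 148240 pairs, with a two-sided exact permutation p over the 362880 orders of the animals. No pair passed adjustment over all pairs (0%, smallest adjusted p = 0.409), nor did any by Spearman's rho, and 6.97% had an unadjusted p under 0.05. All r below are therefore descriptions of these 9 animals, and genes measured on the same arrays share array brightness and tissue composition.

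Among the 28 pairs within the set there was little common movement. The median r was 0.09, 17 pairs were positive and 11 negative, and 23 had an absolute r under 0.5. The 2 synthesis genes Gad1 and Gad2 had an r of 0.26 (exact permutation p = 0.503, adjusted p = 0.930; rho = 0.33, exact p = 0.385), 0.35 without female 2 and male 5, the animals farthest from the Gad1 median, and 0.17 when arrays were scaled to their 75th percentile in place of quantile normalization. For the 2 breakdown enzymes Abat and Aldh5a1, r was 0.41 (exact permutation p = 0.286, adjusted p = 0.871; rho = 0.25, exact p = 0.521) and 0.10 without male 5, or -0.36 without female 2 and male 5. Neither pair of enzymes passed adjustment.

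The 2 pairs with an unadjusted exact p under 0.05 both involved Calb2. Pvalb and Calb2 had an r of -0.91 (exact permutation p = 0.034, adjusted p = 0.691; rho = -0.50, exact p = 0.171), and this rested on male 5, low in the first and high in the second: without it r was -0.21, and without female 3 and male 5, the animals farthest from the Pvalb median, it was 0.04. Abat and Calb2 had an r of -0.83 (exact permutation p = 0.017, adjusted p = 0.662; rho = -0.50, exact p = 0.171), -0.39 without male 5, -0.69 without female 2 and male 5, and -0.12 with no normalization between arrays. Abat and Pvalb, at 0.67 (exact permutation p = 0.088), turned to -0.25 without male 5. In all, 23 of the 28 pairs kept their sign without that animal.

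**Figure D3:**
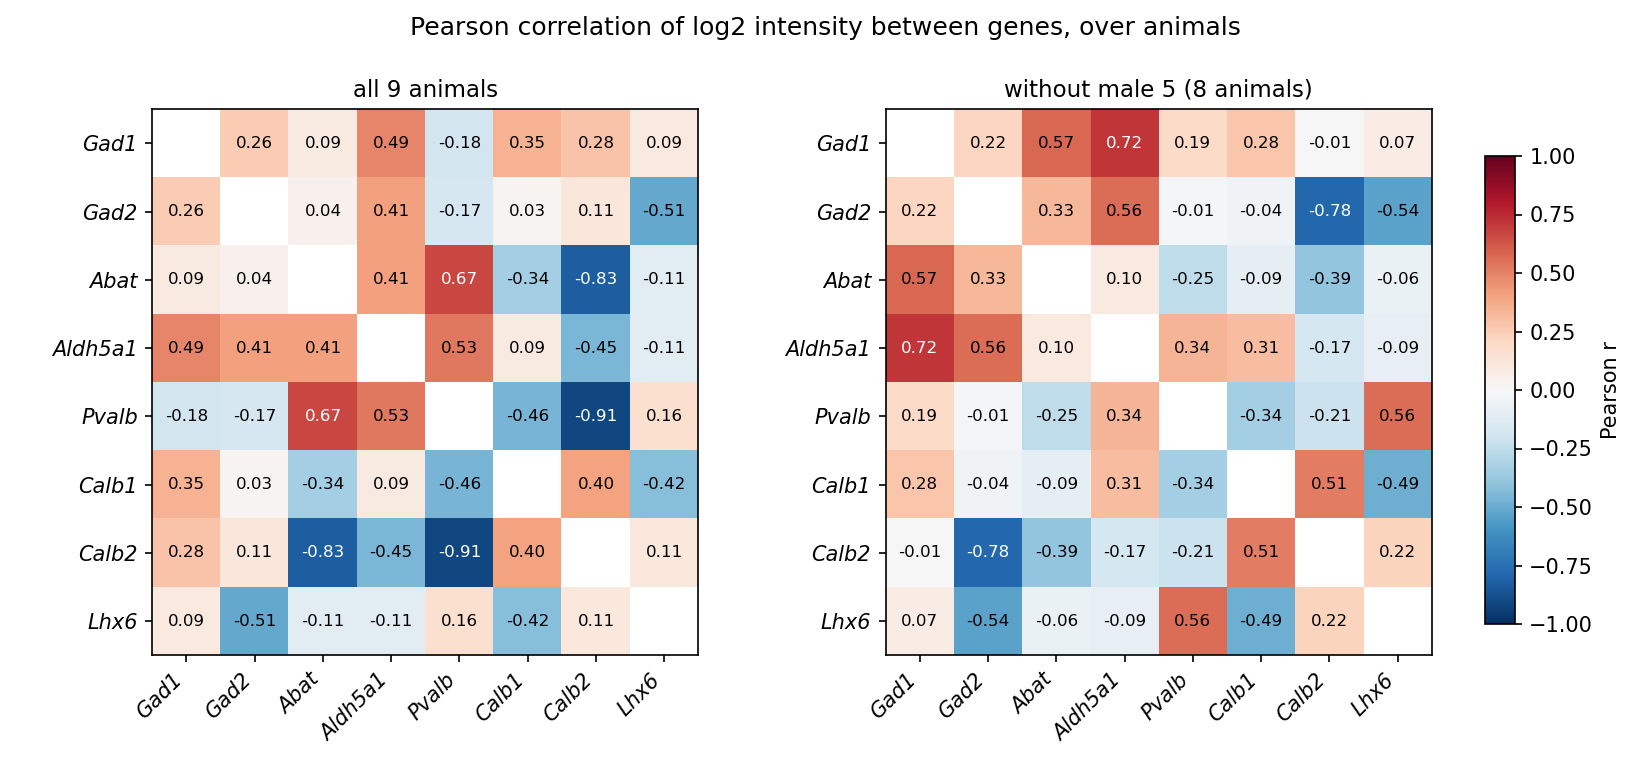
Pearson r of log2 intensity between the 8 genes, over all 9 animals (left) and over the 8 animals without male 5 (right); colour runs from -1 (blue) to 1 (red) and the cells print r. The r of -0.91 between Pvalb and Calb2 and of 0.67 between Abat and Pvalb are -0.21 and -0.25 in the right panel.

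The 3 named genes with the highest r to Pvalb were Scn1a, a voltage-gated sodium channel on which fast-spiking interneurons depend, Lamp5, a membrane protein of neurogliaform interneurons and some pyramidal cells, and Nefm, the medium neurofilament of large axons. Scn1a had an r of 0.98 (exact permutation p = 0.000179, adjusted p = 0.567; rho = 0.87, exact p = 0.00451), with levels of 8.25 to 9.32 in males (median 9.20) and of 9.15, 9.30 and 9.50 in females. Male 5 was its lowest animal, but the other 8 animals also followed Pvalb, with an r of 0.90 without male 5 and 0.85 without female 3 and male 5. For Lamp5, r was 0.97 over all animals, 0.90 without male 5 and 0.85 without female 3 and male 5, and for Nefm it was 0.97, 0.80 and 0.79. At the opposite end, Apoc1, an apolipoprotein, had an r of -0.97, and -0.87 and -0.81 in the same 2 subsets.

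Of 23 fast-spiking and perineuronal net genes listed, 20 were measured. An r with Pvalb of 0.5 or above was found for 10 of them, against 10.2% of all probes, and male 5 was the lowest animal for 11 of the 20. Without male 5 the count was 6, against 12.0% of all probes, and the median r of the list was 0.16 in place of 0.51. Those 6, singled out after their values were seen, were Scn1a, Nefm, Kcnc1, Kcns3, Syt2 and Cplx1, of which Kcnc1 encodes the fast delayed rectifier potassium channel subunit typical of these cells, Kcns3 a modifying potassium channel subunit, and Syt2 and Cplx1 proteins of fast transmitter release. Kcns3 had an r of 0.95 (exact permutation p = 0.00244, adjusted p = 0.605; rho = 0.78, exact p = 0.0172), 0.73 without male 5 and 0.63 without female 3 and male 5. Kcnc1 had a lower r, 0.71 (exact permutation p = 0.0231, adjusted p = 0.668; rho = 0.83, exact p = 0.00827), which was 0.80 without male 5 and 0.77 without female 3 and male 5. The 5 measured net components of the same list, Acan, Bcan, Hapln1, Hapln4 and Tnr, had r of -0.06, -0.41, -0.22, 0.21 and -0.35 over all animals. Without male 5 these were 0.48, -0.11, -0.29, 0.05 and -0.29. A positive median r with Pvalb was not particular to this list. Without male 5 it was 0.45 for excitatory neuron markers, 0.33 for Purkinje cell markers and 0.27 for interneuron neuropeptides and subclass markers. For astrocyte markers it was -0.19.

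The 9 myelin genes, all lowest in male 5, were set against Pvalb, Abat and Calb2. The median r of the 9 myelin genes was 0.73 with Pvalb, 0.83 with Abat and -0.85 with Calb2 over all animals, and 0.28, 0.50 and -0.28 without male 5. Genes of meningeal fibroblasts had a median r of -0.62 with Pvalb and -0.57 with Abat, and of -0.43 with each without male 5, when 4 of 10 were at -0.5 or below in both, against 11.1% of all probes for Pvalb and 10.3% for Abat. A negative r with Pvalb was not particular to meningeal genes. Microglia genes had a median r with it of -0.51, and -0.42 without male 5, when 4 of 8 were at -0.5 or below. Choroid plexus genes, 7 measured and 5 of them detected on every array, had a median r of 0.48 with Abat and -0.20 with Calb2. Without male 5 these were 0.63 and -0.74, with 6 of 7 at 0.5 or above for Abat and 7 of 7 at -0.5 or below for Calb2, against 10.04% and 7.67% of all probes. These 7 genes are not independent: their mean log2 deviation from each gene's median was 1.57 in male 3, 0.69 in male 2 and at most 0.12 in the others. Male 3 was lowest in Calb2, which spanned only 6.46 to 6.51 without male 5, near the dim end of the array. The part of tissue composition in the levels of Pvalb, Abat and Calb2 was not tested.

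**Figure D4:**
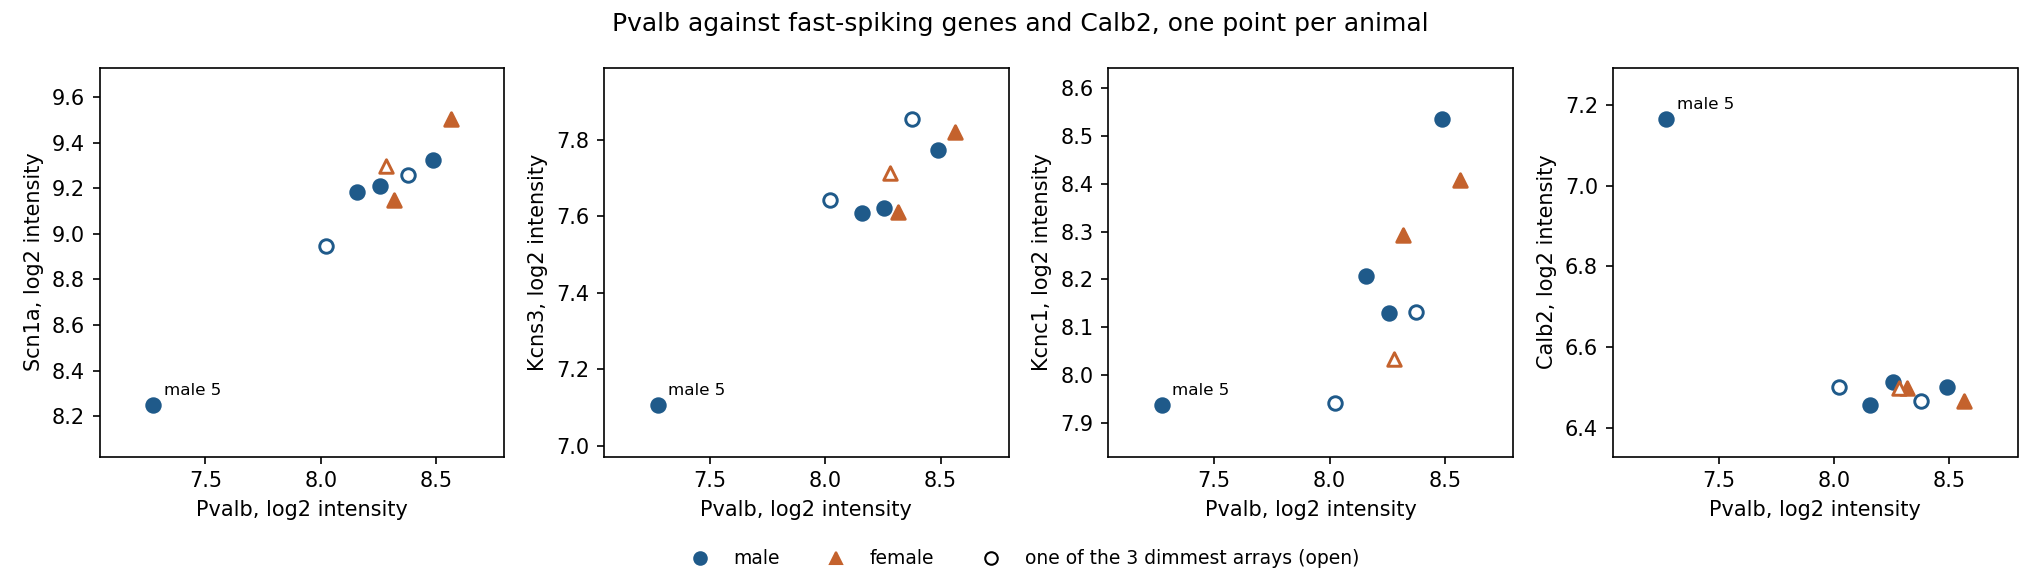
Log2 intensity of Scn1a, Kcns3, Kcnc1 and Calb2 (y axes) against Pvalb (x axis); each point is 1 animal, circles are males, triangles females, and open points the 3 dimmest arrays. Animals other than male 5 still order Scn1a by Pvalb (r = 0.90 without male 5), whereas the relation with Calb2 (r = -0.91) is weaker without that animal (r = -0.21).

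The genes most like Calb2 were Hes5, a Notch target, Mrpl18, a mitochondrial ribosomal protein, and Nnat, an imprinted proteolipid, with r of 0.98 each and of 0.41, -0.36 and 0.41 without male 5. Without male 3 and male 5, the animals farthest from the Calb2 median, r was 0.48, -0.10 and 0.36. Adora1, the adenosine A1 receptor, was the opposite extreme at -0.98, and -0.56 without male 5, -0.68 without male 3 and male 5, and -0.48 with no normalization between arrays. The interneuron lists did not follow Calb2 as a whole: the median r was -0.02 for 18 neuropeptides and subclass markers and 0.25 for 10 transcription factors. An r of 0.5 or above was found for 6 of the 18 and 3 of the 10, against 10.9% of all probes, and for 4 and 3 without male 5, against 7.88%. Of the markers with a high r, chosen after their values were seen, Htr3a and Tacr1, the substance P receptor, were at 0.90 each over all animals and at 0.05 and 0.09 without male 5. Nr2f2 and Reln, chosen in the same way, kept a larger r without male 5. Other members of the same lists differed. Vip, the vasoactive intestinal peptide gene, had an r of -0.33 over all animals and 0.51 without male 5. Prox1 was at -0.22 and -0.04. Nr2f2, a transcription factor of interneurons from the caudal ganglionic eminence, had an r of 0.96 (exact permutation p = 0.00222, adjusted p = 0.595; rho = 0.82, exact p = 0.00959), 0.70 without male 5 and 0.74 without male 3 and male 5. Reln, the secreted glycoprotein of layer 1 and of several interneuron classes, had an r of 0.92 (exact permutation p = 0.000766, adjusted p = 0.584; rho = 0.69, exact p = 0.0442), 0.83 without male 5 and 0.72 without male 3 and male 5. Over the other 8 animals Calb2 itself spanned only 6.46 to 6.51, so those r describe very small movements near the dim end of the array.

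Calb1 ranked the animals like Negr1, a neuronal adhesion molecule, Tusc3, a magnesium transporter and glycosylation subunit, and Rpl31, a ribosomal protein. Their r were 0.96, 0.94 and 0.94, and 0.94, 0.88 and 0.84 without male 3 and male 6, the animals farthest from the Calb1 median. Acp6, a lysophosphatidic acid phosphatase, ran opposite with an r of -0.99 (exact permutation p = 2.48e-05, adjusted p = 0.409; rho = -0.97, exact p = 0.000165), the same -0.99 without male 5, and -0.21 with no normalization between arrays. It was 7.46 to 7.74 in males and 7.59, 7.50 and 7.68 in females, highest in the animals with low Calb1. This was the smallest adjusted p of all pairs, and it did not pass.

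Striatal marker genes tended to be high where Calb1 was, though not all of them were. Their median r with it was 0.55 over 12 measured genes, with 6 of 12 at 0.5 or above against 12.6% of all probes, and 0.66 without male 5. The lowest r over all animals was -0.16. The striatal score, the average over the 12 genes of each animal's log2 deviation from the gene's median, was -0.19 to 0.36 in males and -0.12 to 0.28 in females, highest in male 2, female 2 and male 5. Male 4, with a high Calb1 level of 10.37, had a score of -0.06. Adora2a, the adenosine receptor of indirect-pathway striatal neurons, chosen after its values were seen, ranged from 7.03 to 9.17 in males and from 7.33 to 8.92 in females and had an r of 0.80 with Calb1 (exact permutation p = 0.0131, adjusted p = 0.647; rho = 0.78, exact p = 0.0172), or 0.70 without male 3 and male 6. Tac1, the substance P precursor of direct-pathway striatal neurons and some interneurons, was not on the striatal list and was chosen in the same way. Its r with Calb1 was 0.84 (exact permutation p = 0.00742, adjusted p = 0.624; rho = 0.92, exact p = 0.00131), or 0.80 without those males. Of the 18 neuropeptides and subclass markers, Tac1 included, 2 had an r with Calb1 of 0.5 or above (12.6% of all probes). At -0.5 or below there were 5 (12.9%), with Sst, the somatostatin gene, at -0.66. Without male 5 the counts were 3 and 7 (19.0% and 18.6%). Choroid plexus genes ran opposite to Calb1, with a median r of -0.58 (-0.57 without male 5) and 6 of 7 at -0.5 or below, against 12.9% of all probes. Their score was 1.57 in male 3, the animal lowest in Calb1, 0.69 in male 2, and -0.17 to 0.12 in the other 7 animals. The part of striatal or choroid plexus tissue in the Calb1 level was not tested.

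Lhx6 was closest to B9d2, a ciliary transition zone protein, Scfd2, of the Sec1 family, and Nosip, a ubiquitin ligase, at r of 0.94, 0.93 and 0.93, and furthest from Clk1, a kinase that controls splicing, at -0.98 (exact permutation p = 4.96e-05, adjusted p = 0.507). Clk1 was 9.53 to 9.87 on the 3 dim arrays and 9.26 to 9.48 on the 6 brighter ones. Without males 2 and 4 the r of Lhx6 were 0.71 with B9d2 and -0.91 with Clk1, and within the 6 brighter arrays they were 0.75 and -0.92. With no normalization between arrays the r with Clk1 was -0.50. Of 18 neuropeptides and subclass markers, 7 had an r with Lhx6 of 0.5 or above, against 15.9% of all probes, and 9 without male 5, against 18.5%. Sst, the somatostatin gene of cells that express Lhx6, chosen after its values were seen, had an r of 0.89 (exact permutation p = 0.0019, adjusted p = 0.595; rho = 0.74, exact p = 0.026). The value was 0.50 without male 2 and male 4, the animals farthest from the Lhx6 median, 0.37 over the 6 brighter arrays, and 0.53 with arrays scaled to their 75th percentile. Npy, neuropeptide Y, and Cck, cholecystokinin, chosen in the same way, had r of 0.77 and 0.76 over all animals, 0.58 and 0.70 without those males, and 0.59 and 0.67 over the brighter arrays. The median r of Lhx6 with the 7 excitatory markers fell as that with Sst did, from 0.65 over all animals to 0.23 over the brighter arrays.

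**Figure D5:**
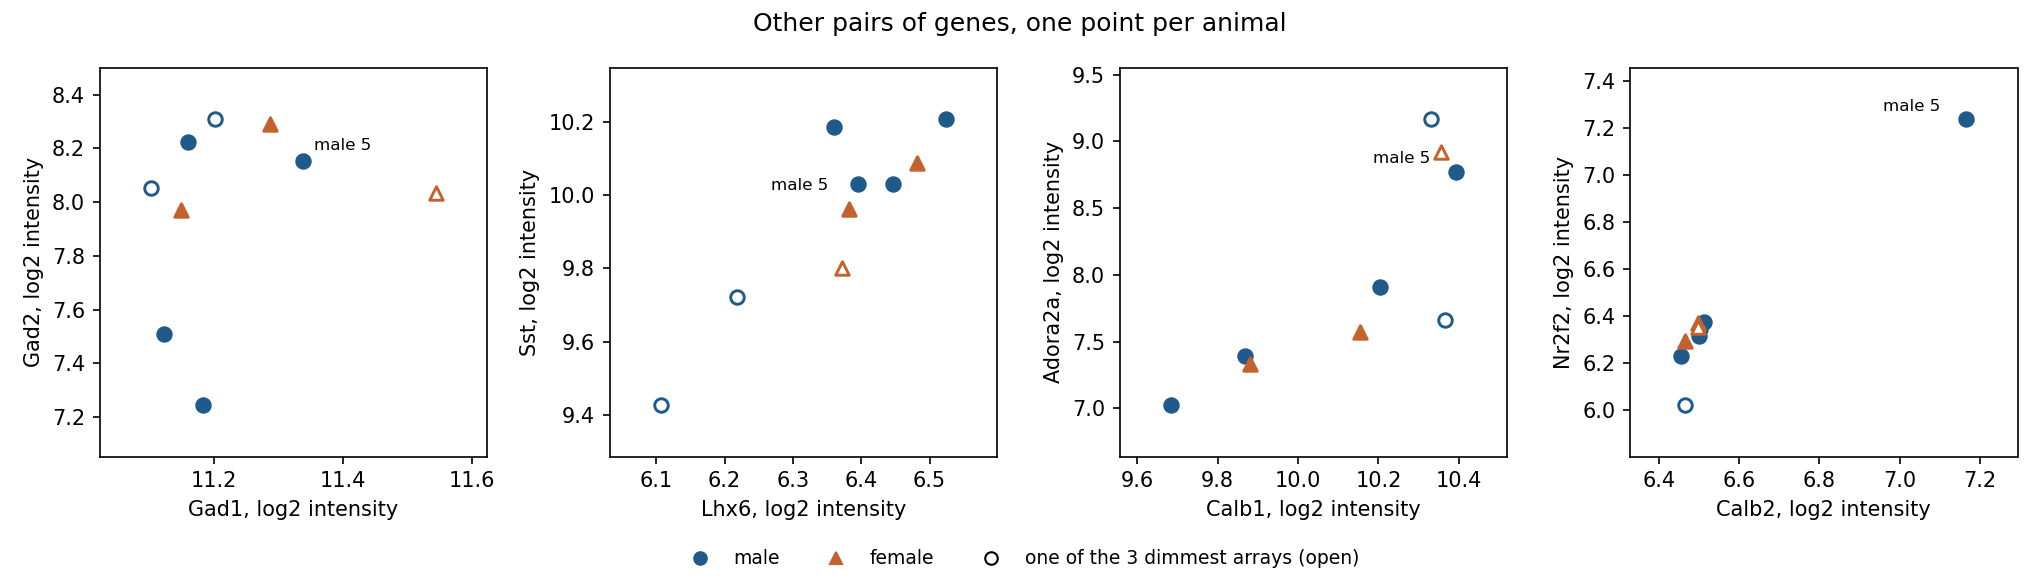
Log2 intensity of Gad2 against Gad1, Sst against Lhx6, Adora2a against Calb1 and Nr2f2 against Calb2 (second gene on the x axis of each panel); each point is 1 animal, circles are males, triangles females, and open points the 3 dimmest arrays. Gad1 and Gad2 show little relation (r = 0.26), the low end of Lhx6 and Sst consists of the dim arrays of males 2 and 4, and male 5 lies far from the rest only in the Calb2 panel.

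Gad1 had its highest r with Klhdc10, a ubiquitin ligase subunit, Trh, the thyrotropin-releasing hormone precursor, and Agpat3, a lipid acyltransferase, at 0.95, 0.94 and 0.92. Female 2, which had the highest Gad1, was also highest in all 3, with Trh at 7.05 there against at most 6.28 in males and 6.15 and 6.35 in females 1 and 3. Myl9, a smooth-muscle myosin light chain, ran opposite at -0.90. Without female 2 and male 5 the 4 values were 0.75, 0.71, 0.70 and -0.80. These relations also depended on the scaling: with arrays scaled to their 75th percentile r was 0.12, 0.53, 0.60 and -0.93, and with no normalization between arrays it was 0.58, 0.39, 0.94 and -0.16. The Klhdc10 probe was constant when intensities were floored at 64 with no background correction, and Myl9 was then at -0.22. Dlx1, a homeobox factor that activates Gad genes in developing interneurons, chosen after its values were seen, had an r of 0.68 with Gad1 (exact permutation p = 0.0454, adjusted p = 0.708; rho = 0.88, exact p = 0.00308), and 0.87 without female 2 and male 5. With Gad2 its r was 0.56 (exact permutation p = 0.116), and 0.33 without males 1 and 6. The 10 measured interneuron transcription factors, Dlx1 among them, had a median r of 0.26 with Gad1 and -0.07 with Gad2. With Gad1, 3 of 10 were at 0.5 or above (6.13% of all probes) and 1 at -0.5 or below (6.09%). With Gad2 there was 1 at each end (6.57% and 7.30% of all probes). Striatal markers had a median r with Gad1 of 0.43, with 4 of 12 at 0.5 or above (6.13% of all probes). Without male 5 these were 0.41 and 5 of 12 (9.14%). Genes of meningeal fibroblasts had a median r with Gad1 of -0.38, with 5 of 10 at -0.5 or below (6.09%). Without male 5 these were -0.68 and 6 of 10 (8.92%), and over the 6 brighter arrays the median was 0.59. The part of striatal or meningeal tissue in the Gad1 level was not tested.

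Gad2 was closest to Slc25a16 and Abcd3, a mitochondrial and a peroxisomal transporter, and to Ext2, a heparan sulfate polymerase, with r of 0.90, 0.86 and 0.89, and furthest from Prox2, a homeobox factor, at -0.94. Without males 1 and 6 r was 0.72, 0.83, 0.28 and -0.43. The r with Prox2 was -0.61 with arrays scaled to their 75th percentile.

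Abat followed Tmem63a, a mechanosensitive channel, Mblac1, a metallo-beta-lactamase domain protein, and Mbp, the myelin basic protein, with r of 0.97, 0.96 and 0.94, and 0.91, 0.88 and 0.83 without male 5. Without female 2 and male 5, the animals farthest from the Abat median, these were 0.87, 0.93 and 0.75. Mbp was 9.13 to 10.80 in males (median 10.46) and 10.57, 10.86 and 10.28 in females, lowest in male 5. The opposite extreme was Slc6a13, a GABA and taurine transporter of leptomeninges and liver, at -0.95 (exact permutation p = 9.92e-05, adjusted p = 0.545; rho = -0.95, exact p = 0.000375), -0.89 without male 5, and -0.19 with no normalization between arrays, where the r with Mbp was 0.56. Slc6a13 was also on the list of meningeal genes, whose score was highest in male 5, at 0.40, and lowest in female 2, at -0.49. Abat was lowest in male 5 and highest in female 2, and the part of meningeal tissue in this relation was not tested.

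Aldh5a1 was closest to Clpx, a mitochondrial chaperone of the matrix protease, Cacnb2, a calcium channel subunit, and Gsdme, a gasdermin, with r of 0.96, 0.93 and 0.92, and furthest from Rps15, a ribosomal protein, at -0.92. These r include the difference between the sexes. Without females 2 and 3, the animals farthest from its median, the 4 values were 0.90, 0.79, 0.86 and -0.85. With no normalization between arrays the r with Gsdme was 0.57 and that with Rps15 was 0.10.

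Other genes of GABA metabolism were read from the same comparison of the sexes, and in each of the 6 lists 0 genes passed adjustment. Of 17 genes for glutamate supply and side routes of GABA, 14 were measured, 7 with a lower and 7 with a higher male mean, and a median difference of 0.02. Got1, the cytosolic aspartate aminotransferase, was 11.19 to 11.47 in males (median 11.45) and 11.56, 11.57 and 11.59 in females, and did not overlap (-0.19 ± 0.07, limma adjusted p = 0.9999). Maob, the monoamine oxidase of astrocytes that can form GABA from putrescine, ran the other way without overlap, at 8.40 to 8.62 in males (median 8.49) and 8.28, 8.20 and 8.37 in females (0.21 ± 0.06, limma adjusted p = 0.9999). The sexes did not overlap for 1.5% of all tested probes, and both genes were named for having the smallest p of their list. Slc38a5, a glutamine transporter, differed by 0.20 ± 0.09 and Akr1b1, an aldose reductase, by -0.15 ± 0.06, with overlap between the sexes in both. GABA uptake was represented by 2 of 4 listed transporters, Slc6a11 (-0.04 ± 0.05) and Slc6a13 (0.07 ± 0.12).

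Interneuron class genes showed no common direction between the sexes. Among 10 measured of 19 listed interneuron transcription factors, 5 were lower and 5 higher in males (median difference -0.01), with Dlx1 at -0.13 ± 0.06, Maf, a factor of medial eminence interneurons, at 0.14 ± 0.11, Prox1 at -0.05 ± 0.05 and Npas1 at 0.07 ± 0.08. Of 18 measured of 21 neuropeptides and subclass markers, 11 were lower (median -0.02). Vip, the peptide of disinhibitory interneurons, was 9.05 to 9.45 in males (median 9.10) and 9.64, 9.36 and 9.26 in females, a difference of -0.24 ± 0.11. Cnr1, the cannabinoid receptor of cholecystokinin cells, differed by 0.24 ± 0.11, Htr3a, a serotonin receptor subunit, by 0.25 ± 0.16, and Crhbp, a binding protein of corticotropin-releasing hormone, by -0.12 ± 0.12. None of these 8 genes separated the sexes.

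Fast-spiking and net genes had a lower male mean for 16 of 20 (median -0.07), a count in which male 5 took part as the lowest animal of 11. The 4 with the smallest p were Vamp1 (-0.35 ± 0.19), Cplx1 (-0.19 ± 0.14), Scn1a (-0.29 ± 0.21) and Ppargc1a, a coactivator that sustains Pvalb expression in mouse (-0.07 ± 0.06), all with overlap. The other EF-hand proteins, relatives of the 3 calcium buffers, had a lower male mean in 5 of 12 measured of 18 listed (median 0.02). Vsnl1, a visinin-like calcium sensor, was -0.27 ± 0.14, Calm3 -0.07 ± 0.07 and Hpca, hippocalcin, -0.16 ± 0.15. Ocm, oncomodulin, a parvalbumin relative, was 0.16 ± 0.07, with 6.52 to 6.81 in males and 6.42, 6.50 and 6.49 in females. It had no overlap, as 1.5% of all tested probes did, and had the smallest p of its list.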

How the data were processed

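Per the labels' protocols, cortex RNA was converted to biotin-labelled cRNA for Illumina rat bead arrays. Each array's deposited table held 1 linear intensity per probe, and a second table from the authors gave log2 values for 15912 probes and served as an alternative. The sources used here do not name the scanner software, probe summary or background step. Intensities were corrected with normexp (offset 50), log2-transformed and quantile-normalized in limma 3.58.1 under R 4.3.3. A probe was called detected above the 25th percentile of its array, and those detected on 3 arrays or more were tested. Depth does not apply to arrays, and their number limits precision. The limma p-values set a difference against the spread between animals, which with 1 array each includes variation between arrays. Each exact p-value is the share of splits or orders of the animals with a value at least as extreme.

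Symbols came from the platform annotation, where 10687 probes had a symbol and 11830 had none. For 10662 probes the symbol was looked up by gene identifier in a RefSeq table. How many symbols changed was not counted. Promoter sequences are RefSeq's. Sex (male minus female) and title number were tested with limma (lmFit, eBayes; Benjamini-Hochberg over all probes), and correlations by exact permutation under Python 3.11.15, adjusted over all pairs. Both steps were first tested on simulated data. Named genes were all 8 measured genes, per gene the 3 named genes with the highest r and the 1 with the lowest among probes detected on all arrays, and per pathway list up to 4 with the smallest p for sex. Genes outside this rule, Slc17a7 and the net components included, were chosen after their values were seen. The genes and lists were chosen with earlier results of these data known. No 2 arrays were identical.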

Additional observations from a re-analysis of the deposited data

Results flagged for a closer look

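Among the 6 males, each of 83 genes, which include all those named in the results, was tested for an animal that stood apart by Dixon's ratio (the gap to the nearest male over the whole range, critical value 0.625). Chance gives such a result in about 1 in 20 groups; here it was found for 15 genes, and the animal was male 5 in all 15. The genes are not independent, since many were named for their likeness to Calb2, Pvalb or Abat, some after their values were seen. Male 5 was highest for Calb2, at 7.17 against 6.51 in the next male, and for Htr3a, at 7.38 against 6.85. It was also highest for the genes most like Calb2, Hes5 (7.14 against 6.27), Mrpl18 (9.08 against 6.36) and Nnat (9.36 against 7.55), and lowest for its opposite, Adora1 (7.63 against 8.10). It was lowest for 2 genes most like Pvalb, Scn1a (8.25 against 8.95) and Lamp5 (10.67 against 11.66), and for Tmem63a, the gene most like Abat (7.19 against 7.99). Among the other genes chosen for their correlations, male 5 was highest for Nr2f2 (7.24 against 6.37), Reln (10.20 against 9.76), Tacr1 (6.83 against 6.32) and Dlx5 (7.44 against 6.87), and lowest for Kcns3 (7.11 against 7.61) and Mobp, a myelin gene (9.20 against 10.45).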

How the results depend on the processing

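No probe passed adjustment for sex under any alternative tried. For Aldh5a1 the male minus female difference ran from -0.25 to -0.17 over all alternatives, with unadjusted p of 0.00065 to 0.0132, and was -0.22 with title number as a replicate block, which changed no call; the numbers are not stated to pair animals. For title number, 0 to 1 probes passed when 1 animal was left out (1 without male 4) and 3 passed without the 3 dimmest arrays. For covariation, 26 pairs passed with residuals from title number means; such residuals sum to 0 within each number, so orders of animals are not freely exchangeable there. The median SD of the 8 genes was 0.132 to 0.199 with 1 animal left out, lowest without male 5, and up to 0.231 under other settings. Reversed in sign were the sex differences of Abat without female 2 and of Calb1 without female 3 or males 1, 2, 4 or 5, with ranges over animals left out of -0.087 to 0.0061 and of -0.11 to 0.12, and of Lhx6 with no background correction and a floor of 64 (0.016), none of which had passed a threshold. Reversed correlations were Abat with Pvalb (-0.25 to 0.77 over animals left out) and Calb2 with Mrpl18 (-0.36 to 0.99), both without male 5, and Aldh5a1 with Rps15 without normalization between arrays (0.10); the cause was not tested. Of the remaining correlation values, 864 kept direction and side of an unadjusted p of 0.05, 87 lost it and 28 gained it; r fell by over 1.5 times for 11 of 58 pairs with no normalization between arrays, 6 of 58 with scaling to the 75th percentile, 1 of 54 with no background correction and a floor of 64, and 0 of 58 in the authors' log2 table; of the differences, 145 kept theirs. Averaging a gene's probes was not run, since each gene had 1 probe, and 4 probes (Klhdc10, Prox2, Clpx and Gsdme) were constant at the floor of 64. Calb2 and Lhx6 lay close to the detection threshold, which limits their values.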
